A study of Mus musculus with 6 samples.

Results

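Solute carriers are the membrane proteins, numbered by family, that move amino acids, sugars, ions, metals, vitamins and metabolites across the plasma membrane and the membranes of organelles. The genes described here are the 147 solute carrier genes that MS-1 endothelial cells expressed, out of 29955 gene names measured. They were chosen by symbol (Slc with a family number and the letter a, or Slco with a number) and by an average level of 1 FPKM or more across the 6 libraries. FPKM is a fragment count scaled by transcript length and by how many fragments a library mapped. Of 346 names that match these patterns, 197 averaged under 1 FPKM and 21 of the 346 were listed at 0 in every library. Slc2a1, Slc2a3, Slc16a3 and Slc7a11 were left out by name, and 2 of the 4 (Slc2a1 at 66.4 FPKM and Slc7a11 at 7.13 FPKM) would have passed the level. The pattern also does not take up 18 names from Slc35b to Slc35f.

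MS-1 cells are an established line of mouse endothelium, derived from pancreatic islets. The cells were transfected with locked nucleic acid inhibitors of miR-31, of miR-27 or with a negative-control inhibitor, and each transfection was cultured for 72 h with 1 ng/ml TGF-β2 or without it. That gave 1 library of total RNA, depleted of ribosomal RNA, for each of 6 conditions, all from the same parental line. TGF-β is a growth factor that drives endothelial cells toward a mesenchymal state. How the response to it differed between these transfections can be described here. With 1 library per condition, whether the response depends on these microRNAs cannot be tested. Per-library values are given in the order miR-31 inhibitor, miR-27 inhibitor, negative control.

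Solute carriers work as uniporters, as symporters or as antiporters, and many draw on the sodium gradient. In endothelium they feed the cell and carry nutrients such as glucose, lactate, amino acids and thyroid hormone across the vessel wall. Amino acid carriers of the cell surface are known targets of ATF4, the transcription factor of the amino acid response. Zinc transporters form opposed families, the Slc30 (ZnT) proteins that move zinc out of the cytosol and the Slc39 (ZIP) proteins that move it in. The Slc25 family serves the inner mitochondrial membrane.

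The level of expression was what chose the genes and is given as a description. Mean FPKM ranged from 1.04 to 403 with a median of 10.3, against a median of 12.6 over the 11816 genes tested. At the top stood the mitochondrial adenine nucleotide translocases Slc25a5 (403 FPKM) and Slc25a4 (320 FPKM). Next came the vesicular zinc transporter Slc30a4 (174 FPKM), the mitochondrial phosphate carrier Slc25a3 (162 FPKM) and Slc3a2 (115 FPKM), the heavy chain that brings amino acid exchangers to the cell surface. Slc38a2, a sodium-coupled carrier of neutral amino acids, had 104 FPKM and was the last of the 6 genes that reached 100 FPKM. In all, 74 genes had at least 10 FPKM and 17 had under 2 FPKM. Just inside the level lay Slc22a18 (1.04 FPKM), Slc26a1 (1.11 FPKM) and Slc2a10 (1.12 FPKM), and just outside it lay Slc2a3 (0.987 FPKM), Slc22a21 (0.977 FPKM) and Slc25a27 (0.915 FPKM). None of the 147 was listed at 0 in any library. Among them, 4 are named after a transporter and are not carriers: the scaffold proteins Slc9a3r1 and Slc9a3r2, and Slc4a1ap and Slc7a6os.

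Libraries were alike in breadth, with 11680 to 11791 genes at 1 FPKM or more. No fragment totals are given, so the depth is unknown and no counting interval can be attached to an FPKM value. Of 8 endothelial markers, 7 reached 1 FPKM (Pecam1 averaged 624 FPKM), while Cldn5 stood at 0.0186 FPKM. None of 5 leukocyte, 6 pancreatic or 3 neural markers reached that level, and of 5 epithelial markers only Krt18 did. The summed FPKM of 5 smooth muscle and mesenchymal markers, of which Acta2 and Pdgfrb reached 1 FPKM on average, was 13.6 to 21.1 in the TGF-β2 libraries and 1.34 to 1.49 in the untreated ones. The summed FPKM of the epithelial markers, nearly all Krt18, was 12.9 to 16.6 with TGF-β2 and 38.7 to 54.5 without it. Both sums moved with every TGF-β2 difference below, and their part in them was not tested. In bulk RNA, fewer cells expressing a gene and less of its RNA per cell cannot be told apart.

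TGF-β2 changed 84 of the 147 genes (57.1%, against 50.2% of all genes tested), by limma on log2(FPKM + 1) with an adjusted p under 0.05 over all genes. Higher with TGF-β2 were 39 genes (26.5%, against 22.7% of all genes), and lower were 45 (30.6%, against 27.5%). The shares lie a little above those of all genes, and the median difference was -0.01 on the log2(FPKM + 1) scale, against -0.02 for all genes. All 84 had the same sign in each of the 3 transfections, and in 81 the 3 TGF-β2 libraries did not overlap the 3 untreated libraries. The calls were made from these same libraries and favour such genes, so this adds no separate support. Counted without a test, all 3 TGF-β2 libraries lay above the others for 46 genes (31.3%, against 26.8%) and below them for 49 (33.3%, against 31.6%). The 63 genes that missed the threshold had differences of -0.25 to 0.29. When a library was left out, which takes its transfection out of the TGF-β2 estimate, 56 of the 84 (24 higher and 32 lower) kept their call in every case, and 28 lost it in at least 1. Calls over all genes tested also went down, from 5926 to 3566 without a negative-control library and 3917 without a miR-27 library. Without a miR-31 library they were 6087. The loss is therefore not particular to the solute carriers. With 1 library a condition the transfections stood in for replicates, and nothing says that they were separate cultures. The p-values set each TGF-β2 difference against how much it varied between these 3 transfections, moderated by the variation over all genes. They do not measure the spread between repeated cultures.

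Few of the changes were large. A called difference of at least 1 upward was found for 3 genes (2.04%, against 2.36% of all genes tested), namely Slco4a1, Slco5a1 and Slc6a6. Downward it was found for 7 (4.76%, against 1.97%), namely Slc30a4, Slc14a1, Slc16a10, Slc25a13, Slc1a5, Slc12a2 and Slc9a3r1. Slco4a1 and Slc14a1 reached the level of 1 FPKM through 1 TGF-β2 state alone, so a difference was built into their choice. Slc9a3r1 is a scaffold protein and not a carrier. Summed over the 147 genes, FPKM came to 3360, 3280 and 3220 in the TGF-β2 libraries, against 3770, 3730 and 3680 in the untreated libraries. The sum was lower with TGF-β2 in each transfection. Within it, Slc30a4 alone had 76.2, 74.0 and 71.8 FPKM with TGF-β2, against 282, 278 and 261 FPKM without it. The median difference over the 147 genes was -0.01, so the sum does not describe a typical gene.

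**Figure D1:**
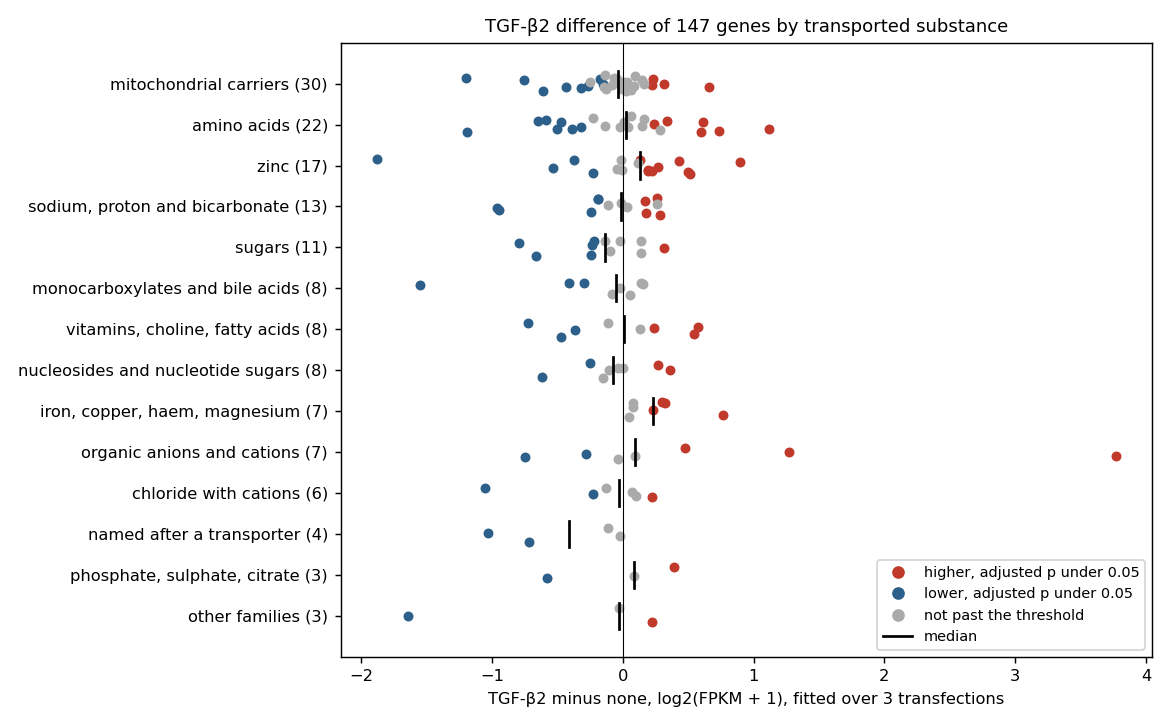
Fitted TGF-β2 minus untreated difference of each of the 147 genes on the log2(FPKM + 1) scale (x axis), grouped by what the family transports (y axis, number of genes in brackets). Each point is a gene, red or blue where limma's adjusted p was under 0.05, grey where not, and black bars are group medians. Slco4a1 lies alone at 3.77 on the right, and Slc30a4 (-1.87), Slc14a1 (-1.64) and Slc16a10 (-1.55) lie farthest to the left.

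Within single transfections the counts were alike. With the miR-31 inhibitor, TGF-β2 moved 2 genes up by at least 1 (against 2.65% of all genes) and 7 down (against 2.43%). With the miR-27 inhibitor it moved 3 up (against 2.43%) and 6 down (against 2.04%), and with the negative control 3 up (against 2.62%) and 7 down (against 2.12%). At a difference of 0.5 the counts were 13 up and 18 down with the miR-31 inhibitor (against 8.11% and 8.29% of all genes). They were 13 up and 24 down with the miR-27 inhibitor (against 7.11% and 7.19%), and 12 up and 23 down with the negative control (against 7.43% and 7.37%). In each transfection more of these genes fell than rose by that size.

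Organic anion and cation transporters held the largest rise. Slco4a1 (OATP4A1, a carrier of organic anions including thyroid hormone; mm9 chr2:180191039-180209557) had 26.5, 20.4 and 15.8 FPKM with TGF-β2, against 0.653, 0.606 and 0.475 FPKM without it. It was under 1 FPKM in every untreated library and above 15 in every TGF-β2 library, a ratio of 40.6, 33.7 and 33.2 in the 3 transfections. The fitted difference was 3.77 ± 0.11 (SE of the fit, n = 3 transfections; limma adjusted p = 5.12e-05). Since Slco4a1 reached the level of 1 FPKM through the TGF-β2 libraries, a difference was built into its choice. The same holds in the falling direction for Slc14a1, Slc22a18, Slc22a23, Slc26a1 and Slc2a5, which averaged 1 FPKM in the untreated state alone.

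Slco5a1, another member of the organic anion family (mm9 chr1:12856631-12981216), had 7.26, 7.16 and 6.57 FPKM with TGF-β2, against 2.37, 2.40 and 2.18 FPKM without it. The groups were far apart and nearly the same in each transfection, with a fitted rise of 1.27 ± 0.04 (limma adjusted p = 5.93e-05). Slco3a1, a prostaglandin carrier, rose by 0.48 ± 0.05 (adjusted p = 0.00156). In the Slc22 family, Slc22a23 fell to 0.679, 0.717 and 0.700 FPKM, against 1.99, 1.81 and 1.74 FPKM, and Slc22a18 fell by 0.28. The carnitine transporter Slc22a5 differed by 0.10 ± 0.07 (adjusted p = 0.296). For Slco4a1, Slc22a18 and Slc22a23 a difference was built in by the level of 1 FPKM, so no count of rises and falls is read from this group.

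**Figure D2:**
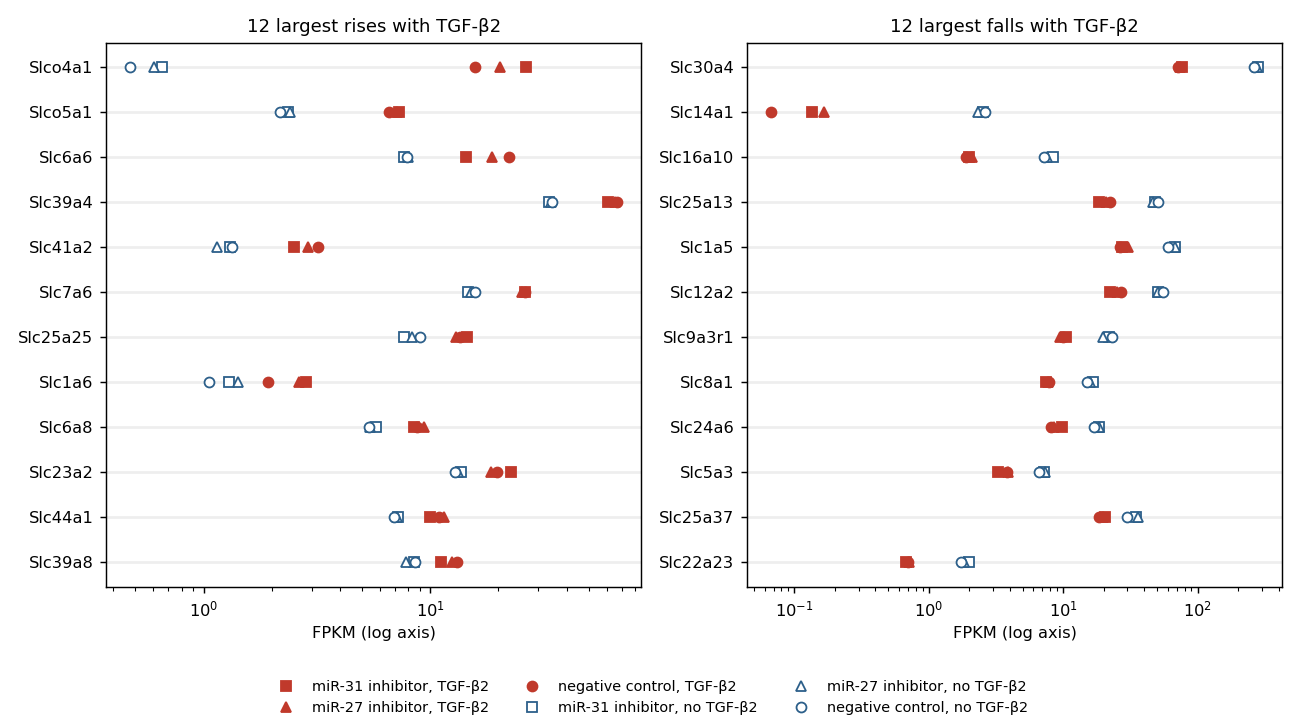
FPKM per library (log axis) of the 12 genes with the largest rise (left) and the 12 with the largest fall (right) under TGF-β2. Filled red symbols are TGF-β2 libraries and open blue symbols untreated ones, with squares for the miR-31 inhibitor, triangles for the miR-27 inhibitor and circles for the negative control, 1 library per symbol. The red and blue symbols do not overlap in any of the 24 genes, and the widest gaps are those of Slco4a1 (15.8 to 26.5 against 0.475 to 0.653 FPKM) and Slc14a1 (0.0675 to 0.165 against 2.31 to 2.64 FPKM).

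Amino acid transporters split. Of 22 genes, 6 rose, 7 fell and 9 did not pass the test (against 22.7% higher and 27.5% lower of all genes), and their median difference was 0.02. Slc6a6, the taurine transporter (mm9 chr6:91634061-91709057), had 14.5, 18.8 and 22.2 FPKM with TGF-β2, against 7.69, 7.99 and 7.89 FPKM without it. The untreated libraries were nearly equal, and among the TGF-β2 libraries the miR-31 inhibitor was lowest and the negative control highest. The fitted rise was 1.12 ± 0.11 (limma adjusted p = 0.00146). Slc7a6, the light chain y+LAT2 that exchanges cationic for neutral amino acids, had 26.3, 25.3 and 26.3 FPKM with TGF-β2, against 14.7, 15.1 and 15.7 FPKM without it.

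Smaller rises were those of the creatine transporter Slc6a8 (0.59 ± 0.06, adjusted p = 0.00123) and the glutamate transporter Slc1a6 (0.61 ± 0.06, adjusted p = 0.00132). Slc36a4, a carrier of small neutral amino acids, rose by 0.34 ± 0.05, and Slc38a9, the lysosomal carrier that senses arginine, by 0.24 ± 0.05 (adjusted p = 0.0184, and 0.0991 without either negative-control library). On the falling side, Slc38a1, a sodium-coupled glutamine carrier, had 18.8, 16.7 and 16.5 FPKM with TGF-β2, against 25.3, 24.5 and 23.2 FPKM without it. Slc43a3, placed in this group by its family number alone, fell by 0.39 ± 0.04 and the proton-coupled carrier Slc36a1 by 0.32 ± 0.04. The related Slc38a6, at 78.3 FPKM on average, differed by 0.16 ± 0.06 (adjusted p = 0.0776, and 0.0176 without either miR-31 library).

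Of 9 amino acid transporter genes listed as linked to ATF4, 7 were expressed (Slc7a3 and Slc43a1 were under the level). None of the 7 rose, 4 fell and 3 did not pass the test (against 22.7% higher and 27.5% lower of all genes). The list was chosen with earlier results of these data known. It does not hold Slc7a11, which was left out by name and had a fitted TGF-β2 difference of 0.336 (7.13 FPKM on average). Slc1a5, the glutamine carrier ASCT2 (mm9 chr7:17366695-17383623), had 27.3, 30.4 and 26.3 FPKM with TGF-β2, against 67.3, 68.0 and 60.6 FPKM without it. It fell alike in all 3 transfections, by 1.19 ± 0.05 (adjusted p = 0.000105).

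The other called falls of this list differed between the transfections. Slc7a5, the light chain LAT1 that carries large neutral amino acids, had 19.6, 14.2 and 10.3 FPKM with TGF-β2, against 23.3, 23.8 and 21.5 FPKM without it. The fitted fall was 0.65 ± 0.15 (adjusted p = 0.0194). Slc7a1, the arginine carrier CAT1, had 34.7, 24.2 and 17.4 FPKM with TGF-β2, against 43.1, 41.2 and 28.9 FPKM without it. Here the groups overlapped, since the miR-31 library with TGF-β2 was above the negative control without it, while every transfection fell (by 0.58 ± 0.10 in the fit, adjusted p = 0.00757). Slc6a9, the glycine transporter GlyT1, had 4.60, 3.0 and 1.69 FPKM with TGF-β2, against 5.09, 5.32 and 3.44 FPKM without it, which also overlap (fitted fall 0.50 ± 0.13, adjusted p = 0.0277). Without either negative-control or either miR-27 library, Slc6a9 and Slc7a5 no longer passed the test (adjusted p of 0.0608 to 0.114). With no filter on low genes or no inhibitor term in the model, Slc7a1 missed it as well (adjusted p of 0.0533 and 0.103).

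The 3 that did not pass differed between transfections. Slc1a4, the alanine, serine and cysteine carrier ASCT1 (mm9 chr11:20202183-20232716), had 18.1, 8.71 and 5.35 FPKM with TGF-β2, against 11.6, 11.8 and 8.64 FPKM without it. Its TGF-β2 difference was 0.60 with the miR-31 inhibitor, -0.40 with the miR-27 inhibitor and -0.60 with the negative control. Slc3a2 had 188, 115 and 84.5 FPKM with TGF-β2, against 106, 114 and 82.4 FPKM without it, so that only the miR-31 transfection differed by more than 0.1 (a difference of 0.81). Slc38a2 had 125, 85.6 and 78.7 FPKM with TGF-β2, against 119, 114 and 99.7 FPKM without it. For Slc1a4 and Slc38a2 the miR-31 transfection decides the call: without either of its libraries Slc1a4 (-0.50, adjusted p = 0.00372) and Slc38a2 (-0.37, adjusted p = 0.00334) were called lower. The fitted Slc1a4 difference was -0.13 with all libraries and 0.10 without either negative-control library, neither of which passed.

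**Figure D3:**
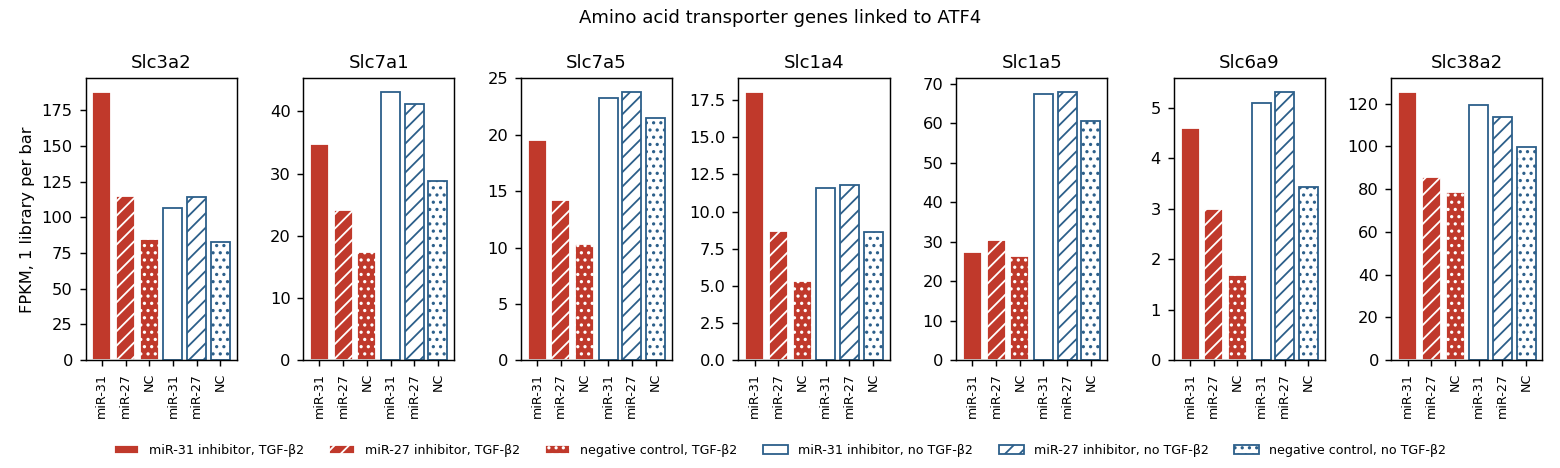
FPKM of the 7 expressed amino acid transporter genes linked to ATF4, 1 library per bar and each panel with its own linear axis from 0. Red bars are the TGF-β2 libraries and blue outlines the untreated ones, in the order miR-31 inhibitor, miR-27 inhibitor, negative control (NC). Among the red bars the miR-31 inhibitor is highest for Slc3a2, Slc7a1, Slc7a5, Slc1a4, Slc6a9 and Slc38a2, while for Slc1a5 the red bars (26.3 to 30.4 FPKM) are alike.

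Of 11 sugar carriers, 1 was higher and 5 were lower (against 22.7% higher and 27.5% lower of all genes), with a median of -0.13. Slc2a1, left out by name, is not counted here, and its fitted TGF-β2 difference was 0.284. Slc2a5 is among the falls and reached the level of 1 FPKM through the untreated libraries. Groups follow family numbers, so this one also holds Slc5a6, known as a vitamin carrier. Slc5a3, which takes up myo-inositol with sodium, had 3.25, 3.86 and 3.83 FPKM with TGF-β2, against 7.20, 7.35 and 6.57 FPKM without it. The groups were well apart, with a fitted fall of 0.79 ± 0.07 (limma adjusted p = 0.000961). Slc45a4 fell by 0.66 ± 0.04, the fructose carrier Slc2a5 by 0.24, Slc50a1 by 0.24 and the urate carrier Slc2a9 by 0.22. These last 3 lost their call without a library of the miR-27 (Slc2a5 and Slc2a9), miR-31 (Slc2a9) or negative-control (Slc50a1) transfection, with adjusted p of 0.0689 to 0.146. The exception was Slc37a4, the glucose-6-phosphate carrier of the endoplasmic reticulum, which rose by 0.31 ± 0.04 (adjusted p = 0.00435). Of the hexose carriers kept here, Slc2a8 had the highest mean (4.5 FPKM), and its difference of 0.14 ± 0.05 did not pass (adjusted p = 0.0691).

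In the monocarboxylate and bile acid families none of 8 genes rose and 3 fell (against 22.7% higher and 27.5% lower of all genes). Slc16a10, which carries aromatic amino acids and thyroid hormone (mm9 chr10:39753341-39862060), had 2.0, 2.11 and 1.88 FPKM with TGF-β2, against 8.43, 7.64 and 7.22 FPKM without it. The untreated libraries were 4.21, 3.62 and 3.85 times as high, a fitted fall of 1.55 ± 0.05 (limma adjusted p = 7.27e-05). Slc16a1, the lactate carrier MCT1, had 33.0, 32 and 33.5 FPKM with TGF-β2, against 43.0, 43.1 and 46.0 FPKM without it (fall 0.41 ± 0.04, adjusted p = 0.00152). Slc16a6 fell by 0.30 ± 0.05, with overlapping groups. The 3 bile acid family genes (Slc10a1, Slc10a3 and Slc10a7) did not pass the test.

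A list of 15 endothelial and barrier transporters had 5 expressed genes, of which 4 fell (Slc7a5, Slc7a1, Slc16a1 and Slc9a3r2) and none rose (against 22.7% higher and 27.5% lower of all genes). The list does not hold Slc2a1, which was left out by name and had a fitted TGF-β2 difference of 0.284 (66.4 FPKM on average). Of these 4, Slc9a3r2 is a scaffold protein and not a carrier. Slc7a5 and Slc7a1 are also among the falls of the list linked to ATF4. The fifth, the nucleoside carrier Slc29a1, had 23.0, 23.7 and 24.1 FPKM with TGF-β2, against 26.6, 25 and 24.8 FPKM without it, and did not pass (adjusted p = 0.131). The other 10, among them the blood-brain barrier carriers Slco1a4, Slco1c1 and Slc38a5, averaged under 1 FPKM and were not tested. One of the 10 was the iron exporter Slc40a1 (ferroportin), with 1.04, 1.0 and 1.11 FPKM with TGF-β2, against 0.0255, 0.0437 and 0.0147 FPKM without it.

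Of 17 zinc transporter genes, 9 rose, 4 fell and 4 did not pass (against 22.7% higher and 27.5% lower of all genes), with a median difference of 0.13, against -0.02 for all genes. The strongest change was nevertheless a fall. Slc30a4 (ZnT4, which loads zinc into vesicles; mm9 chr2:122506975-122528399) had 76.2, 74.0 and 71.8 FPKM with TGF-β2, against 282, 278 and 261 FPKM without it. Each untreated library was 3.64 to 3.76 times its TGF-β2 partner, and the fitted fall was 1.87 ± 0.04 (limma adjusted p = 2.80e-05). It was the highest of the zinc genes in the untreated state, while with TGF-β2 it lay near Slc39a1.

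Among the exporters, the other called Slc30 genes rose. Slc30a7, of the Golgi, had 9.04, 8.22 and 9.17 FPKM with TGF-β2, against 6.35, 5.83 and 6.73 FPKM without it (rise 0.43 ± 0.04, adjusted p = 0.00124). Slc30a9 rose by 0.23, Slc30a6 by 0.19 and Slc30a1, the exporter of the plasma membrane, by 0.13 ± 0.04 (adjusted p = 0.0467). The last lost its call when any library was left out (adjusted p of 0.091 to 0.195). Slc30a5, the partner of Slc30a6 in the secretory pathway, differed by 0.12 and did not pass (adjusted p = 0.0610).

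Importers moved both ways, 5 of 11 up and 3 down (against 22.7% higher and 27.5% lower of all genes). Slc39a4 (ZIP4; mm9 chr15:76442813-76447282) had 61.1, 65.2 and 66.6 FPKM with TGF-β2, against 33.5, 34.3 and 34.5 FPKM without it, a rise of 0.90 ± 0.04 (limma adjusted p = 0.000173). Slc39a8, which carries zinc and manganese, had 11.2, 12.5 and 13.1 FPKM with TGF-β2, against 8.47, 7.84 and 8.61 FPKM without it. Slc39a13 rose by 0.50 ± 0.06, Slc39a7 of the endoplasmic reticulum by 0.27 and Slc39a6 by 0.19.

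The falling importers were Slc39a14, Slc39a11 and Slc39a10. Slc39a14, which also carries iron and manganese, had 8.61, 7.31 and 7.18 FPKM with TGF-β2, against 11.7, 11.4 and 11.5 FPKM without it (fall 0.53 ± 0.06, adjusted p = 0.00183). Slc39a11 fell by 0.37 and Slc39a10 by 0.23. Without a library of the negative-control or miR-27 transfection, Slc39a10, Slc39a6, Slc30a6 and Slc30a9 lost their calls (adjusted p of 0.0537 to 0.0933). The most abundant importer, Slc39a1, had 78.4, 81.1 and 85.2 FPKM with TGF-β2, against 79.7, 78.2 and 88.6 FPKM without it, with overlapping groups (adjusted p = 0.881), and Slc39a3 and Slc39a9 also did not pass.

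**Figure D4:**
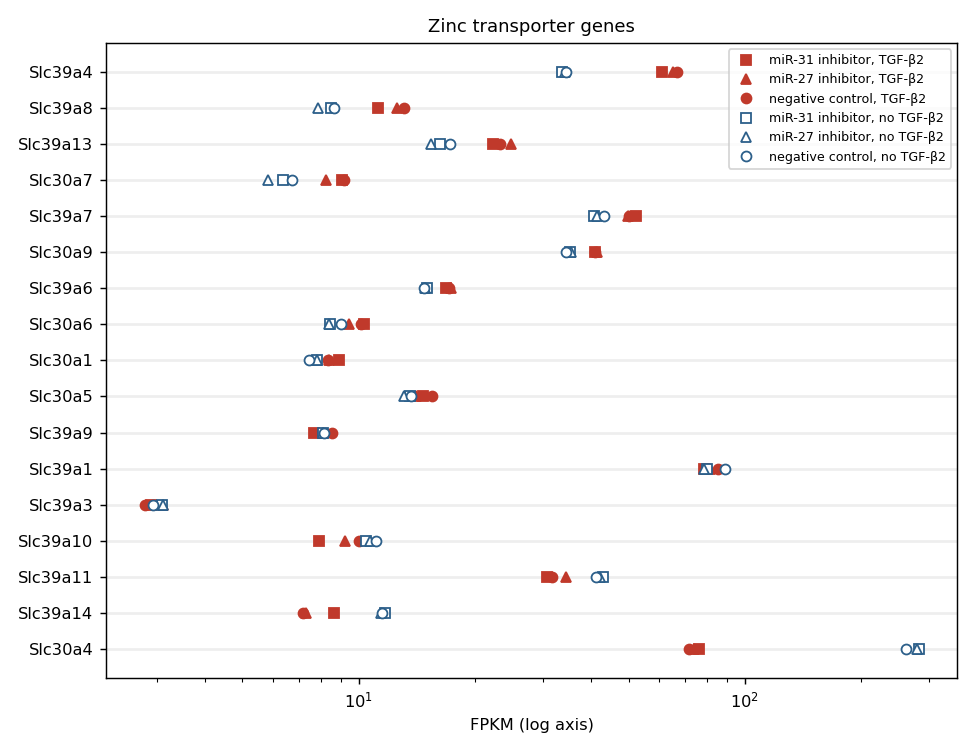
FPKM per library (log axis) of the 17 zinc transporter genes, ordered from the largest fitted rise (top) to the largest fall (bottom) under TGF-β2. Filled red symbols are TGF-β2 libraries and open blue symbols untreated ones, 1 library per symbol. Slc39a4 at the top (61.1 to 66.6 against 33.5 to 34.5 FPKM) and Slc30a4 at the bottom (71.8 to 76.2 against 261 to 282 FPKM) change most.

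Iron, copper, haem and magnesium carriers rose in 4 of 7 genes and fell in none (against 22.7% higher and 27.5% lower of all genes). Slc41a2, a magnesium carrier, had 2.51, 2.88 and 3.19 FPKM with TGF-β2, against 1.31, 1.14 and 1.34 FPKM without it (rise 0.77 ± 0.06, limma adjusted p = 0.000932). The copper importer Slc31a1 rose by 0.32 ± 0.06, the iron carrier Slc11a2 by 0.30 ± 0.06 and the magnesium carrier Slc41a1 by 0.23 ± 0.06. Without a miR-27 library Slc11a2 (adjusted p = 0.0683) and Slc41a1 (adjusted p = 0.126) lost their calls, and Slc41a1 did so also without a negative-control library (adjusted p = 0.117). The haem carrier Slc48a1, Slc31a2 and Slc41a3 did not pass.

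Sodium, proton and bicarbonate carriers rose in 4 and fell in 5 of 13 genes (against 22.7% higher and 27.5% lower of all genes). Slc26a1 is among the falls and reached the level of 1 FPKM through the untreated libraries. It also lost its call without a negative-control or a miR-27 library. Slc24a6, the sodium-calcium exchanger of mitochondria (mm9 chr5:120961201-120984033), had 9.80, 8.59 and 8.14 FPKM with TGF-β2, against 18.5, 18.5 and 16.9 FPKM without it. It was lower in every transfection, by 0.95 ± 0.05 in the fit (limma adjusted p = 0.000247). Slc8a1, the sodium-calcium exchanger of the plasma membrane, had 7.39, 7.75 and 7.83 FPKM with TGF-β2, against 16.6, 16.0 and 14.9 FPKM without it (fall 0.96 ± 0.06, adjusted p = 0.000311). That gene is also listed at the same place as NCX1, with 3.26, 1.91 and 30.2 FPKM with TGF-β2 and 20.9, 4.85 and 15 FPKM without it. With both names summed the Slc8a1 difference was -0.81 ± 0.39 and lost its call (adjusted p = 0.146), with a difference of 0.34 in the negative-control transfection.

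Acid-base carriers changed less. The Golgi sodium-proton exchanger Slc9a8 fell by 0.18 and the bicarbonate carrier Slc4a8 by 0.19. Slc4a2, an anion exchanger, rose by 0.18, Slc9a5 by 0.28, the anion exchanger Slc26a6 by 0.27 and the sulphate carrier Slc26a2 by 0.17. Without a library of the negative-control or miR-27 transfection, Slc9a8, Slc4a8, Slc4a2 and Slc26a2 lost their calls (adjusted p of 0.0715 to 0.141). The scaffold proteins that bind sodium-proton exchangers both fell. Slc9a3r1 (NHERF1) had 10.5, 9.45 and 10.0 FPKM with TGF-β2, against 21.8, 19.7 and 23.0 FPKM without it (fall 1.03 ± 0.05, adjusted p = 0.000175). Slc9a3r2 had 46.4, 46.7 and 49.8 FPKM with TGF-β2, against 78.8, 73.8 and 83.8 FPKM without it.

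In the chloride-cation family, 1 of 6 genes rose and 2 fell (against 22.7% higher and 27.5% lower of all genes). The rise was that of Slc12a8 (0.22), and the falls were those of Slc12a9 (0.22) and Slc12a2. Slc12a8 lost its call without a miR-27 library, and Slc12a9 without a miR-27 or a negative-control library. Slc12a2, the sodium-potassium-chloride importer NKCC1 (mm9 chr18:58038332-58106475), had 22.2, 25.1 and 27.1 FPKM with TGF-β2, against 51.0, 50.5 and 55.7 FPKM without it. The 3 untreated libraries were 2.30, 2.02 and 2.06 times as high, a fitted fall of 1.05 ± 0.05 (limma adjusted p = 0.000210). The potassium-chloride exporters Slc12a4 (difference 0.07) and Slc12a7 (difference -0.13) did not pass.

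Mitochondrial carriers formed the largest group, with 4 of 30 genes higher, 8 lower and 18 not passing the test (against 22.7% higher and 27.5% lower of all genes). Of the called genes, Slc25a16 and Slc25a32 (higher) and Slc25a46 and Slc25a11 (lower) lost their calls when a library was left out. For Slc25a11 this held in every transfection. Slc25a13 (citrin, the aspartate-glutamate carrier; mm9 chr6:5991218-6167173) had 18.5, 20.9 and 22.4 FPKM with TGF-β2, against 48.0, 46.3 and 50.8 FPKM without it, a fall of 1.20 ± 0.06 (limma adjusted p = 0.000201). Its close relative Slc25a12, with 21.9, 23.4 and 24.4 FPKM against 22.5, 21.4 and 24.1 FPKM, had overlapping groups (adjusted p = 0.569). The untreated level of Slc25a13 was above that of Slc25a12, while with TGF-β2 the FPKM ranges of both genes overlapped.

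Mitoferrin-1, Slc25a37, which brings iron into mitochondria, had 20.3, 19.7 and 18.4 FPKM with TGF-β2, against 34.8, 36.2 and 29.8 FPKM without it (fall 0.75 ± 0.05, adjusted p = 0.000490). Mitoferrin-2, Slc25a28, differed by -0.14 and did not pass (adjusted p = 0.211), while without a miR-31 library it was called lower (-0.25, adjusted p = 0.0117). Slc25a39, a glutathione carrier, fell to 71.2, 77.5 and 79.5 FPKM with TGF-β2, against 118, 115 and 116 FPKM without it. Of the ATP-magnesium/phosphate carriers, Slc25a25 rose by 0.66 ± 0.07 (adjusted p = 0.00202) and Slc25a24 fell by 0.43 ± 0.04 (adjusted p = 0.00145). The abundant translocases did not pass the test: Slc25a5 differed by -0.14 (adjusted p = 0.0563), Slc25a4 by -0.01 and the phosphate carrier Slc25a3 by -0.04.

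Urea, vitamin, lipid, phosphate and nucleoside carriers held single large changes. Slc14a1, the urea transporter UT-B (mm9 chr18:78296830-78338858), had 0.135, 0.165 and 0.0675 FPKM with TGF-β2, against 2.53, 2.31 and 2.64 FPKM without it (fall 1.64 ± 0.06, limma adjusted p = 9.64e-05). It was among the lowest of the 147 genes with TGF-β2, so its ratio rests on values near 0. Since it reached the level of 1 FPKM through the untreated libraries, a fall was built into its choice. Slc27a1, a fatty acid transport protein, had 48.0, 45.7 and 35.4 FPKM with TGF-β2, against 73.2, 77.0 and 64.3 FPKM without it (fall 0.73 ± 0.06, adjusted p = 0.000857). Vitamin carriers divided: the ascorbate carrier Slc23a2 rose by 0.57 ± 0.06, while the thiamine carrier Slc19a2 fell by 0.47 ± 0.06 and the folate carrier Slc19a1 by 0.37 ± 0.05.

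The choline carrier Slc44a1 had 9.94, 11.5 and 11.0 FPKM with TGF-β2, against 7.19, 7.12 and 6.89 FPKM without it, a rise of 0.55 ± 0.06 (limma adjusted p = 0.00172). Its relative Slc44a2, at 91.0 FPKM on average, differed by -0.11 and did not pass. The phosphate importer Slc20a1 fell by 0.58 ± 0.08 (adjusted p = 0.00439) and the lysosomal sialic acid carrier Slc17a5 rose by 0.39 ± 0.06. Among nucleoside carriers Slc29a2 fell to 1.10, 1.04 and 0.962 FPKM with TGF-β2, against 2.20, 2.15 and 2.01 FPKM without it. Nucleotide-sugar carriers of the Golgi moved apart, with Slc35a1 (rise 0.27) and Slc35a5 (rise 0.36) higher and Slc35a3 (fall 0.25) lower. Slc35a5 and Slc35a3 lost their calls without a miR-27 library (adjusted p of 0.0623 and 0.0523), and Slc35a5 also without a negative-control library (adjusted p = 0.0681).

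Of 36 partner genes of transport (chaperones, ion pumps, iron storage, aquaporins and ATP-driven exporters), 21 were tested, of which 5 rose and 9 fell (against 22.7% higher and 27.5% lower of all genes). The largest were a rise of 1.25 for the lipid exporter Abca1 and a fall of 0.95 for the ferritin chain Fth1. The zinc-binding metallothionein Mt1 had 12, 15.3 and 9.89 FPKM with TGF-β2, against 6.56, 6.43 and 5.19 FPKM without it (rise 0.91 ± 0.08, limma adjusted p = 0.00113). Basigin (Bsg), the chaperone of the lactate carriers, did not pass (adjusted p = 0.425).

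The mature sequences of the inhibited microRNAs are shown because the inhibitor comparisons turn on their seeds (bases 2 to 8, in capitals). They are from RefSeq, build GRCm38.p6, and both forms of miR-27 are given because the labels name no form.
mmu-miR-31-5p (chr4:88910614-88910635, minus strand): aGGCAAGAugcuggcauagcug
mmu-miR-27a-3p (chr8:84208727-84208747, plus strand): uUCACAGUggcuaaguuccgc
mmu-miR-27b-3p (chr13:63300760-63300780, plus strand): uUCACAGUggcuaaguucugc
Both miR-27 forms have the same seed, which differs from that of miR-31.

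Over both TGF-β2 states together, limma called none of the 147 genes for either inhibitor, against 0.0339% of all genes for the miR-31 inhibitor and 0.00846% for the miR-27 inhibitor. At an unadjusted p under 0.05 there were 31 genes for the miR-31 inhibitor (21.1%, against 18.1% of all genes) and 23 for the miR-27 inhibitor (15.6%, against 12.4%). With trend and robust options of limma the count was also 0 for both. The fit rests on 2 residual degrees of freedom. The miR-31 count depends on a single library: without the library of the miR-31 inhibitor alone, which leaves the TGF-β2 library to stand for the inhibitor, 16 of the 147 genes were called higher (10.9%, against 5.94% of all genes) and 2 lower (1.36%, against 3.68%).

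Amino acid transporters linked to ATF4 had the same direction with both inhibitors. Both inhibitors gave values above the negative control in both TGF-β2 states for all 7 of them, while among the 147 genes this held for 37 (25.2%, against 25.1% of all genes). Both comparisons use the same 2 negative-control libraries, and the list was chosen with earlier results of these data known. The median fitted difference of the 7 was 0.75 for the miR-31 inhibitor and 0.45 for the miR-27 inhibitor, against 0.01 for all genes with either. For Slc7a1, for example, the miR-31 inhibitor differed from the negative control by 0.96 with TGF-β2 and by 0.56 without it (fitted 0.76 ± 0.12, limma adjusted p = 0.211), and the miR-27 inhibitor by 0.46 and 0.50. Slc6a9 differed by 1.06 with TGF-β2 and 0.46 without it when miR-31 was inhibited, and by 0.57 and 0.51 when miR-27 was.

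With TGF-β2 present, 3 genes were higher by at least 1 with the miR-31 inhibitor than with the negative control (2.04%, against 0.432% of all genes), and these were Slc1a4 (1.58), Slc3a2 (1.14) and Slc6a9 (1.06). At a difference of 0.5 they were 11 (7.48%, against 2.25%). The others were Slc7a1, Slc25a33, Slc7a5, Slco4a1, Slc38a2, Slc20a1, Slc26a11 and Slc25a38. Slc25a33, a mitochondrial carrier of pyrimidine nucleotides, had 4.38 FPKM with the miR-31 inhibitor and 1.74 FPKM with the negative control, both with TGF-β2, and without either miR-31 library its TGF-β2 difference was called (-0.48, adjusted p = 0.00153). Lower by 0.5 was Slc6a6 (-0.58; 0.68% of the genes, against 1.21% of all). Without TGF-β2 the same threshold was passed by Slc7a1 (0.68%, against 0.584%). For the miR-27 inhibitor it was passed by Slc16a6, Slc1a4 and Slc6a9 with TGF-β2 (2.04%, against 0.508%) and by Slc6a9 and Slc7a1 without it (1.36%, against 0.626%). Each of these differences is of 2 libraries and has no test.

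The TGF-β2 response with the miR-31 inhibitor lay at least 0.5 above both other responses for 5 genes (3.40%, against 1.18% of all genes): Slc1a4, Slc3a2, Slc25a33, Slc46a3 and Slc6a9. None lay above by 1 (against 0.288%). Slc46a3, a lysosomal carrier, had 2.59 FPKM with both the miR-31 inhibitor and TGF-β2, and 1.51 to 1.77 FPKM in the other libraries. Below both others stood Slc6a6, whose response was 0.83 with the miR-31 inhibitor, against 1.14 with the miR-27 inhibitor and 1.38 with the negative control, followed by Slc35a5, Slc41a2 and Slc35a4. No response with the miR-27 inhibitor lay 0.5 above or below both others. The largest excess was that of Slc39a13, which rose by 0.66 with the miR-27 inhibitor and by 0.41 with the negative control.

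Outside amino acid transport, Slc25a30 was above the negative control in both states for the miR-31 inhibitor (0.49 with TGF-β2 and 0.44 without it), and so it was for inhibited miR-27 (0.33 and 0.46). It had 37.0, 33.1 and 26.1 FPKM with TGF-β2, against 36.9, 37.5 and 26.9 FPKM without it, so both negative-control libraries were lowest and TGF-β2 made no called difference. Slc16a6 was likewise higher with both inhibitors, where blocking miR-31 gave 0.45 (TGF-β2) and 0.30 (untreated) and blocking miR-27 gave 0.57 (TGF-β2) and 0.45 (untreated). Below the negative control in both states, and ranked by the smaller of the 2 differences, the first genes were Slc16a4, Slc25a44, Slc35a4 and Slc25a24 for the miR-31 inhibitor (fitted -0.20 to -0.29), and Slc10a1, Slc25a10, Slc10a3 and Slc10a7 for the miR-27 inhibitor (fitted -0.14 to -0.24). None of them passed the test.

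A 7-base match to the miR-31 seed (TCTTGCC) was present in the annotated 3′ UTR of 25 of 146 of these genes with a UTR in GENCODE vM21 (17.1%, against 13.1% of all genes tested). Their median difference between the miR-31 inhibitor and the negative control was 0.09 with TGF-β2 and 0.04 without it, against -0.01 and 0.02 for the solute carriers without a match. Over all genes tested the medians with a match were 0.001 with TGF-β2 and 0.033 without it, against -0.001 and 0.014 for genes without a match. For the miR-27 seed match (ACTGTGA) there were 30 genes (20.5%, against 17.6%). Their median difference between the miR-27 inhibitor and the negative control was -0.001 with TGF-β2 and 0.043 without it, against 0.013 and -0.004 for the solute carriers without a match. Over all genes it was 0.01 and 0.026 with a match, against 0.004 and 0.002 without one. The matches of the genes at either end of the miR-31 comparison, Slc1a4 (highest) and Slc6a6 (lowest), are shown with 10 bases on each side and the match in capitals.
Slc1a4 (chr11, UTR base 946): gtaacttgccTCTTGCCtacttcactg
Slc6a6 (chr6, UTR base 361): cttgaattggTCTTGCCagcaatggat
Both genes hold the same 7 bases, while with TGF-β2 the miR-31 inhibitor was above the negative control for Slc1a4 (1.58) and below it for Slc6a6 (-0.58). Slc3a2 and Slc6a9, the next highest, have no match.

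Promoter windows (250 bases before to 50 after the RefSeq start, GRCm38.p6) were available for 114 of the 147 genes and were searched on both strands. Some genes have several windows, and a gene was counted if any of them held the motif. Shares therefore also depend on the number of windows per gene, which was not compared. The 9-letter C/EBP-ATF response element TGATGNAAT was in none of the 114, against 0.585% of the 8887 genes tested that had a window. The shorter form TGATGCAA, looked for after the values were seen, was in 3 (Slc1a4, Slc7a7 and Slc50a1; 2.63%, against 0.619%). The antioxidant response element core TGACNNNGC was in 30 (26.3%, against 17.1%). The metal response element core (TGCACNC or TGCGCNC) was in 49 (43.0%, against 41.2%), and in 7 of 14 zinc transporters with a window. The palindromic Smad element GTCTAGAC was in none, against 0.293%. These matches are descriptions of the letters and show no binding.

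The window of Slc1a4, the amino acid carrier with the widest spread between inhibitors, is shown in the direction of transcription (chr11:20332664-20332963, minus strand), with the reverse complement of the shorter element in capitals, starting 4 bases before the transcription start.
Slc1a4: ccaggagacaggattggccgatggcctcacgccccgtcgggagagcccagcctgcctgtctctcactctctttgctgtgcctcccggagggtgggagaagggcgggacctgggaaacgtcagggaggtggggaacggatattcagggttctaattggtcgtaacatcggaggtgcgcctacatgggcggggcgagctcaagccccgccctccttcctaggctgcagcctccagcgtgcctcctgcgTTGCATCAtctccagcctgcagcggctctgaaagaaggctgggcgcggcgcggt
Slc7a7, the light chain y+LAT1, which also holds the element, had 3.56, 2.78 and 2.46 FPKM with TGF-β2, against 2.96, 2.60 and 2.87 FPKM without it. The miR-31 inhibitor with TGF-β2 was highest, with overlapping groups (limma adjusted p = 0.721). Slc50a1, the remaining gene with the element, was called lower with TGF-β2 when all libraries were kept. Of 5 transporters linked to ATF4 with a window, 1 (Slc1a4) held the element.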

How the data were processed

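The authors deposited FPKM per gene name for 6 libraries, made with TopHat2 2.0.9 and Cufflinks 2.1.1 on mm9, per the submitters' processing notes. The annotation and counting options are not given in the sources used here. Ribosomal RNA was depleted and directional libraries were made, per the labels' protocols. The deposited FPKM were not rescaled and were tested as log2(FPKM + 1), which understates changes of low genes. Listed starts count from 0 and are given from 1.

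The 11816 genes averaging 1 FPKM or more were fitted with limma 3.58.1 in R 4.3.3. The additive model had inhibitor (3 levels) and TGF-β2 (2 levels), a 2-sided moderated test, Benjamini-Hochberg adjustment over all genes and a threshold of 0.05. It left 2 residual degrees of freedom, with 2.87 prior degrees of freedom, and was tested on simulated data. Its residual spread also holds any dependence of the TGF-β2 response on the inhibitor. Differences of 2 libraries have no test.

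Genes and lists were chosen with earlier results of these data known. Genes named with values were those with the 12 largest rises and 12 largest falls, the largest inhibitor differences and responses apart, the 10 highest means, the extremes of each family of at least 4, the list genes and those beside the level of 1 FPKM. Others named to complete a group were chosen after their values were seen. Another listed name overlaps 41 of the 147 genes, so reads may be split or shared there. Alternatives were other scalings, filters, pseudocounts and model options, and leaving out each library.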

Additional observations from a re-analysis of the deposited data

Results flagged for a closer look

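Slc1a4, the carrier ASCT1, differed in opposite directions with TGF-β2 in different transfections. Its TGF-β2 response on the log2(FPKM + 1) scale was 0.60 where miR-31 was inhibited, -0.40 where miR-27 was inhibited and -0.60 in the negative control. Each response is the difference of 2 libraries, and the difference between the responses was not tested, since the model has no degrees of freedom for it.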

How the results depend on the processing

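The labels give no replicate numbers and each condition has 1 library. The pairing of libraries by transfection is the inhibitor term of the model, and without this term 5450 of all genes were called for TGF-β2, against 5926 with it. Of 2013 TGF-β2 values recomputed for the 147 genes, 1789 kept their direction and side of the threshold, 122 lost a call and 37 gained a call. No called value changed sign. The sign did change in 65 values of 24 genes, none of them called (lowest adjusted p = 0.302). With upper-quartile rescaling, 13 differences just below 0 came to lie above it, at 0.002, 0.003, 0.004, 0.013, 0.018, 0.020, 0.023, 0.034, 0.036, 0.037, 0.038 and 0.039. When a library was left out, the lowest and highest values were -0.152 to 0.061 for Slc10a1, -0.499 to 0.103 for Slc1a4, -0.009 to 0.072 for Slc25a12, -0.067 to 0.006 for Slc25a3, -0.019 to 0.010 for Slc25a4, -0.039 to 0.015 for Slc39a1, -0.033 to 0.031 for Slc39a9, -0.066 to 0.144 for Slc41a3, -0.062 to 0.238 for Slc46a3, -0.081 to 0.019 for Slc7a6os and -0.047 to 0.137 for Slc7a7. For 12 further genes with differences near 0 they were -0.051 to 0.015, -0.057 to 0.016, -0.031 to 0.115, -0.027 to 0.028, -0.022 to 0.037, -0.085 to 0.010, -0.020 to 0.017, -0.108 to 0.070, -0.023 to 0.034, -0.041 to 0.028, -0.015 to 0.101 and -0.050 to 0.020. For the 24 largest TGF-β2 changes, 329 values held and 1 did not: Slc8a1 lost its call when its names were summed.

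Counts over all genes moved most. For the miR-31 inhibitor they were 13 with trend and robust options, 0 without a filter and 3 to 1137 when a library was left out, with 0 to 16 of the solute carriers higher and 0 to 2 lower. For the miR-27 inhibitor they were 0 without a filter and 1 to 12 when a library was left out. For TGF-β2 they were 3566 to 6087 when a library was left out, with 26 to 42 solute carriers higher and 33 to 48 lower. At a threshold of 0.5 in place of 1, TGF-β2 raised 13, 13 and 12 and lowered 18, 24 and 23 solute carriers with the miR-31, miR-27 and negative-control inhibitor. Inhibitor differences then passed for 11 higher and 1 lower (miR-31, with TGF-β2), 1 (miR-31, without), 3 (miR-27, with) and 2 (miR-27, without), and 5 responses stood apart. The causes of these moves were not tested. Sequencing depth is unknown, so no limit from counting can be given.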
